A study of Mus musculus with 24 samples.

Results

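The hippocampi of 6 aged mice injected with blood plasma of young mice were compared with those of 5 aged mice injected with saline, by RNA sequencing of the whole tissue. These 11 libraries are all the young plasma and saline hippocampi among the 24 samples of the series, and the test covered 13594 of 24411 genes, those that reached 10 normalized counts in 5 or more libraries. All were C57/Bl6 males of 20 months that received 8 intravenous injections of 100 μl over 24 days and were perfused with buffered saline before dissection. Young plasma came from 3-month-old donors, was spun once at low speed, so that it still held platelets, and was dialysed before use. No genetic change is named for either arm, and the saline mice followed the same schedule. A normalized count is a gene's read number scaled for the depth of its library, and all differences are log2(normalized count + 1), young plasma minus saline. In whole tissue, fewer cells of a type and less RNA per cell cannot be told apart.

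Young blood has long been studied for factors that act on the old brain, and the hippocampus, which forms new memories and keeps a niche of dividing precursor cells in the dentate gyrus, is the region most often examined. Granule neurons of the dentate gyrus pass excitation to the pyramidal neurons of the CA fields, while oligodendrocytes wrap axons in myelin, astrocytes clear transmitter, and microglia and complement respond to damage. The ventricle next to the hippocampus is lined by ciliated ependymal cells and holds the choroid plexus, which secretes cerebrospinal fluid. The comparison asked which of these programmes differed after young plasma.

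The labelled tissue was present in every library, with Prox1 of dentate granule neurons at 229 to 625 normalized counts. The libraries held 6140510 to 10522699 counted reads after saline and 6586357 to 7739868 after young plasma, so counting error was small for all but the lowest genes. On the first principal component, with 32.6% of the variance, saline mice 7146 and 7152 and young plasma mice 7147 and 7150 lay apart from the other 7. Transthyretin (Ttr), the leading transcript of the choroid plexus, ran from 848 normalized counts in saline mouse 7152 to 43232 in young plasma mouse 7147, and its part in the results below was not tested.

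Mice with neighbouring numbers resembled each other across the groups. When each library was expressed as its deviation from the mean of its group, saline mouse 7143 and young plasma mouse 7144 had a correlation of 0.448 over the 13594 genes, 7146 and 7147 one of 0.482, 7155 and 7156 one of 0.247, and 7596 and 7594 one of 0.247. The other 26 combinations of a saline with a young plasma mouse had a median of -0.0921 (range -0.399 to 0.493), and the highest of them was 7152 with 7150, which are also near in number. For 3 of the 4 saline mice with a neighbour that neighbour was the most alike young plasma mouse, whereas 7596 was closer to 7144 (0.301). The labels do not say whether a number stands for a cage, a litter or a day, so what the neighbours shared is unknown. A second fit with a term for each of the 4 neighbouring pairs (8 mice) is therefore given beside the fit of all 11 mice wherever it changes a count or a call.

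**Figure D1:**
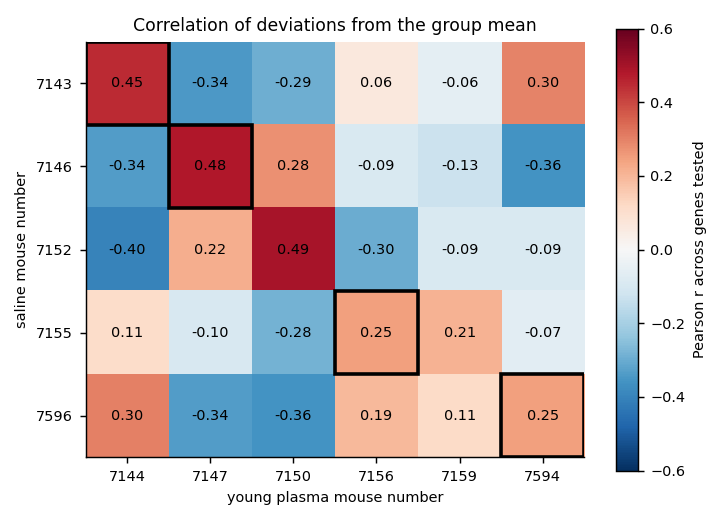
Pearson correlation, across the genes tested, of each saline library's deviation from the saline mean (rows, by mouse number) with each young plasma library's deviation from the young plasma mean (columns). The framed squares are the 4 pairs of neighbouring numbers, at 0.25 to 0.48, and the highest square of all is 7152 with 7150 at 0.49.

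At the study's threshold, an unadjusted P of 0.05, 456 genes (3.35%) differed between young plasma and saline by limma, of which 251 (1.85%) were higher and 205 (1.51%) lower after young plasma. That share is below the one in 20 that the threshold itself lets through when nothing differs, and 0 genes passed Benjamini-Hochberg adjustment (smallest adjusted p = 0.9997), nor did any by edgeR or DESeq2 on the reads. With the term for neighbouring pairs, 1106 genes (8.14%) passed, 522 (3.84%) higher and 584 (4.3%) lower, again with 0 past adjustment (smallest adjusted p = 0.128). The same 8 mice without that term gave 472 genes (3.47%). Counts of lists in the paired fit below are to be set against 8.14%, and those of the 11 mice against 3.35%. Of the 456 genes, 283 also passed in the paired fit, all 283 in the same direction. The 8 mice of the paired fit are among the 11, so a likeness between these fits, here and below, is not independent evidence. The changes were small, with a median size of 0.38 on the log2 scale, and 21 of the 456 exceeded 1. Every adjusted p of a gene named below is 0.9997 or more in the fit of 11 mice, so each call is one of 456 at the unadjusted threshold. In 58 of the 456 (45 higher and 13 lower) fewer than 5 mice of the group with the lower level reached 10 normalized counts, so these passed the filter through the group where they were high. Of the genes named below, Klk6, Cdhr3, Tgtp1, Tacr1, Htr6, Hydin, Ttc21a, Amd1, Chst9, 9830147E19Rik, Ackr2, Vegfc and Gh are among the 58. Their values and calls are a description only, and no test of them is given. Leaving out young plasma mouse 7156 or saline mouse 7146 took the 456 to 297 and 298, and leaving out the 4 libraries apart on the first component, an alternative added after seeing the data, took it to 300 of the genes then tested (2.28%).

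Among the 15 higher genes with the smallest P and a mean of at least 50 normalized counts was Dusp26, a phosphatase of neurons that acts on MAP kinases (chromosome 8, 31089527 to 31097046, GRCm38). It had 749.7, 861, 658, 829 and 856 normalized counts in the 5 saline mice and 907 to 1339 (median 1093) in the 6 young plasma mice. All 6 young plasma mice were above every saline mouse, a log2 difference of 0.48 (SE 0.11, exact p = 0.00433). Each exact p is a two-sided permutation test of one gene over all 462 splits of the 11 mice and can be no less than 0.00216, whereas a call is made by limma, and of the 88 called genes named by rule 17 had an exact p above 0.05. Tprn, which encodes taperin of actin bundles, had 250.5, 176, 195, 180.2 and 229.6 normalized counts in the 5 saline mice and 238 to 336 (median 283) in the 6 young plasma mice. The groups met only at their edges, and the difference was 0.47 (SE 0.12, exact p = 0.00649). Pls1, an actin-bundling plastin, had 143, 116, 96.9, 119 and 132 normalized counts in the 5 saline mice and 122 to 184 (median 175) in the 6 young plasma mice, a difference of 0.44 (SE 0.14, exact p = 0.0152), and young plasma mouse 7594 lay within the saline range. Pdlim1, an adaptor of the actin cytoskeleton, differed by 0.61 (exact p = 0.00866) and Frs3, an adaptor of fibroblast growth factor receptors, by 0.51 (exact p = 0.00649), with 5 of 6 young plasma mice above all saline mice for each. Lypd6b, a Ly6-family protein that modulates nicotinic receptors, Bend5, a transcriptional repressor, and Efhd1, a calcium-binding protein of mitochondria, were higher by 0.50, 0.48 and 0.39.

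Gltp, another of the 15, which carries glycolipids between membranes, had 595, 417, 486, 493 and 561 normalized counts in the 5 saline mice and 536 to 752 (median 680.4) in the 6 young plasma mice. The difference was 0.39 (SE 0.11, exact p = 0.013), with young plasma mouse 7594 alone inside the saline range. Cers2, the ceramide synthase that makes the very long acyl chains of myelin lipids, had 687 ± 70.8 normalized counts (SD, n = 5) in saline mice, against 899 ± 142 (SD, n = 6) in young plasma mice, a difference of 0.38 (SE 0.12, exact p = 0.0216). Tppp3, which promotes tubulin assembly and is abundant in ciliated cells, had 252, 140.5, 165, 126 and 227 normalized counts in the 5 saline mice and 226 to 402 (median 279) in the 6 young plasma mice. Its difference was 0.71 (SE 0.19, exact p = 0.0108), and the lowest young plasma mouse lay just below the highest saline values. Tmem88b, Gsn, Ndrg1 and Sox10 complete the set, with differences of 0.67, 0.37, 0.44 and 0.56. All 15 kept their call when any one of the 11 libraries was left out, which a choice by small P favours. In the paired fit 10 of the 15 passed, and the 5 that did not were Lypd6b, Bend5, Sox10, Efhd1 and Pls1. Without the 4 libraries apart on the first component Gltp, Pdlim1, Cers2, Bend5, Gsn, Ndrg1, Efhd1 and Pls1 no longer passed.

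The 15 lower genes were chosen in the same way. Galntl6, a gene of the family that starts O-linked glycans (chromosome 8, 57772489 to 58912531), had 151, 214, 216, 206 and 201 normalized counts in the 5 saline mice and 116 to 163 (median 132) in the 6 young plasma mice. The difference was -0.53 (SE 0.13, exact p = 0.00649), and saline mouse 7143 was the one saline mouse inside the young plasma range. Srr, serine racemase, which makes the NMDA receptor co-agonist D-serine (chromosome 11, 74904027 to 74927533), had 1203, 1359, 1348, 1316 and 1222 normalized counts in the 5 saline mice and 990 to 1171 (median 1029) in the 6 young plasma mice. Every young plasma mouse was below every saline mouse, with a difference of -0.28 (SE 0.07, exact p = 0.00649). Slc1a1, the neuronal glutamate transporter EAAC1 (chromosome 19, 28835135 to 28913960), had 1917, 2309, 2168, 1995 and 1917 normalized counts in the 5 saline mice and 1462 to 1839 (median 1759.8) in the 6 young plasma mice. Its groups did not overlap either, and the difference was -0.27 (SE 0.08, exact p = 0.00216), with the smallest p the test allows. Cacna2d1, the auxiliary calcium channel subunit that binds gabapentin, had 467, 602, 598, 524 and 527 normalized counts in the 5 saline mice and 329 to 512 (median 413) in the 6 young plasma mice, a difference of -0.40 (SE 0.12, exact p = 0.0108).

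Prkra, another of the lower genes and an activator of the double-stranded RNA kinase PKR, had 125, 117, 103, 122 and 115 normalized counts in the 5 saline mice and 85.5 to 98.9 (median 89.2) in the 6 young plasma mice, without overlap, and a difference of -0.35 (SE 0.11, exact p = 0.00216). Skiv2l2, the helicase of the nuclear exosome, had 533, 575, 548, 517 and 561 normalized counts in the 5 saline mice and 423 to 496 (median 457) in the 6 young plasma mice, also without overlap, and a difference of -0.26 (SE 0.07, exact p = 0.00433). Dmtf1, a Myb-like transcription factor, differed by -0.29 (exact p = 0.00216), Zc3h7a, a zinc finger protein that binds RNA, by -0.40 (exact p = 0.00433), and Fastkd5, a processor of mitochondrial RNA, by -0.42 (exact p = 0.0152). Ccdc132, a subunit of a complex that returns endosomes to the membrane, differed by -0.32 (exact p = 0.00649). Napepld, which makes precursors of anandamide, had a difference of -0.50 (exact p = 0.0238) and Zbtb1, a zinc finger repressor, one of -0.38 (exact p = 0.0108). Amd1, described below, is among the 15 but passed the filter through the saline mice, so its call is a description only. The lower genes other than Amd1 all passed in the paired fit and kept their call without any one library. Without the 4 libraries apart Cacna2d1, Slc1a1, Zbtb1, Fastkd5, AI597479 and Napepld no longer passed. The groups did not overlap in 7 of the 15 lower genes, against 1 of 15 among the higher ones, but the genes were picked by small P. Among all genes tested the groups did not overlap in 26 (0.191%), 14 higher and 12 lower.

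**Figure D2:**
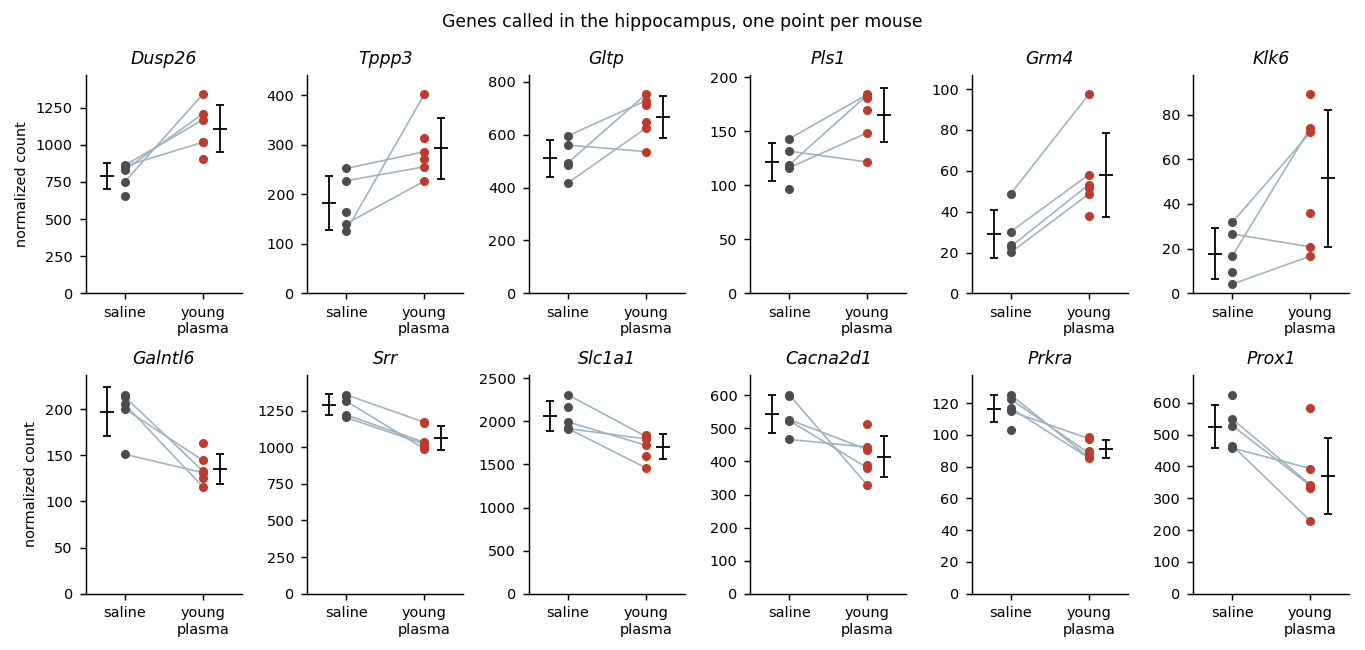
Normalized counts of 12 called genes in each mouse, saline (grey, n = 5) and young plasma (red, n = 6), with the mean and SD beside the points. Thin lines join the 4 pairs of neighbouring mouse numbers, and in Srr, Slc1a1, Prkra and Dusp26 the groups do not overlap.

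Among the largest changes of called genes with a mean of at least 20, Amd1 aside, were those of several genes of low level. Klk6, a serine protease of oligodendrocytes, had 31.7, 4.15, 9.69, 16.7 and 26.6 normalized counts in the 5 saline mice. It had 16.7 to 89.0 (median 53.9) in the 6 young plasma mice, a difference of 1.50. Of the 6 young plasma mice, 4 were above all saline mice. Grm4, the presynaptic metabotropic glutamate receptor mGluR4, had 48.8, 22.8, 23.8, 20.0 and 30.2 normalized counts in the 5 saline mice and 38.0 to 97.4 (median 52.5) in the 6 young plasma mice. It was higher by 0.98 (SE 0.27, exact p = 0.013) and by 1.08 (SE 0.22) in the paired fit. Tgtp1, an interferon-induced GTPase, had 21.1, 52.6, 9.69, 90.1 and 38.7 normalized counts in the 5 saline mice. It had 27.4 to 129 (median 93.3) in the 6 young plasma mice, a difference of 1.16. Its call is a description only, and the difference was 0.74 without saline mouse 7152. Among the lower genes, Chst9, a sulphotransferase, differed by -0.80. Eps8l1, an actin regulator, differed by -0.86 (exact p = 0.0628) and lost its call without any one of saline mice 7143, 7146, 7152 and 7596 or young plasma mice 7144, 7147 and 7594. The uncharacterized gene 9830147E19Rik stood at -1.03, and at -0.81 without saline mouse 7155, and its call is a description only.

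Amd1, the decarboxylase that supplies polyamine synthesis, had the largest difference of the called genes, -6.06. This difference is uncertain because Amd2, a near-identical copy, can share its reads. Amd1 was listed at 0 in young plasma mice 7147, 7150, 7159 and 7594, at 979 and 347 in mice 7144 and 7156, and at 276 to 1111 in the saline mice. Amd2 was at 961 to 1190 in the 4 mice without Amd1. The sum of both was 1113 ± 47.7 normalized counts (SD, n = 5) in saline mice, against 1061 ± 80.8 (SD, n = 6) in young plasma mice, ranges of 1059.8 to 1184 and 961 to 1190.4. The log2 difference of the sum was -0.07 (two-sided exact permutation p = 0.221), a difference within the spread between mice. Atp6v0c-ps2, a pseudogene of the proton pump subunit Atp6v0c, had the smallest P of the paired fit and can share reads with its parent likewise. It was listed at 0 in saline mouse 7152 and young plasma mice 7144, 7156, 7159 and 7594, and reached 2181 in saline mouse 7155, in which Atp6v0c was lowest of all (7643 normalized counts against 8904 to 10990 elsewhere).

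**Figure D3:**
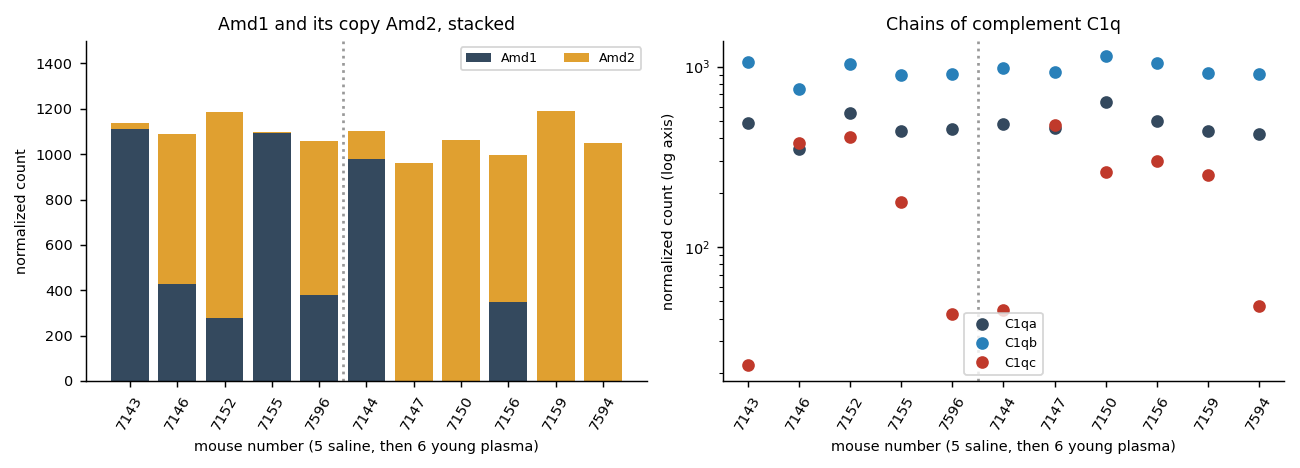
Left, normalized counts of Amd1 and Amd2 stacked for each mouse, saline then young plasma; the total stays between 961 and 1190.4 while the split varies from mouse to mouse. Right, C1qa, C1qb and C1qc in the same mice on a log axis, with C1qc under 50 in mice 7143, 7596, 7144 and 7594 while C1qa and C1qb vary little.

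Myelin and oligodendrocyte genes stood higher in most young plasma mice than in the saline mice. Of 39 tested, 24 were called higher and 0 lower, all 39 had a difference above 0, and their median was 0.44, where 47.3% of all genes tested were above 0 with a median of -0.01. Mbp, which encodes the basic protein that compacts myelin, had 53197, 25693, 32342, 41153 and 42229 normalized counts in the 5 saline mice and 33568 to 77822 (median 55798) in the 6 young plasma mice. Its difference was 0.49 (SE 0.22, exact p = 0.0887), and the lowest young plasma mice lay among the saline mice. Mog, a protein on the outer face of the sheath, had 482 ± 131 normalized counts (SD, n = 5) in saline mice, against 716 ± 191 (SD, n = 6) in young plasma mice, Fa2h, which hydroxylates myelin lipids, 306 ± 49.8 normalized counts (SD, n = 5) in saline mice, against 471 ± 155 (SD, n = 6) in young plasma mice, and Opalin, an oligodendrocyte membrane protein, 212 ± 47.7 normalized counts (SD, n = 5) in saline mice, against 309 ± 79.5 (SD, n = 6) in young plasma mice. Nkx6-2, a homeobox factor of the lineage, had 32.5, 16.6, 22.9, 13.3 and 30.2 normalized counts in the 5 saline mice and 26.3 to 53.1 (median 45.9) in the 6 young plasma mice. The difference was 0.93 (SE 0.26, exact p = 0.00866), with 5 of 6 young plasma mice above all saline mice. Within the pairs, the mean of the list was higher in the young plasma mouse by 0.33, 0.46 and 0.51 (log2) in 3 pairs and lower by 0.18 in the pair of 7594 with 7596.

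In the paired fit 21 of the 39 myelin genes passed (53.8%, against 8.14% of all genes tested), with a median of 0.30. The same 8 mice without the pair term gave 6 of 39. The count of the 11 mice rested on few libraries, as it became 9 without saline mouse 7146, 13 without saline mouse 7152, 13 without young plasma mouse 7144, 12 without young plasma mouse 7150 and 15 without young plasma mouse 7156. Without the 4 libraries apart on the first component 4 of 39 passed, with a median of 0.20 and 37 above 0. Members that did not pass included Myrf, the transcription factor that switches on myelin genes, at 0.14 (exact p = 0.682), Aspa, which degrades N-acetylaspartate, at 0.31 (exact p = 0.301), and Sirt2, a deacetylase of myelin, at 0.07 (exact p = 0.297). Enpp2 stood at 0.18 (exact p = 0.84) and is also a gene of the choroid plexus.

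Genes of oligodendrocyte precursors and newly formed oligodendrocytes gave 4 called higher and 0 lower of 18, with a median of 0.14 and 12 above 0. Olig1, a transcription factor kept from precursor to mature cell, had 1753, 967, 1509.8, 1232 and 1315 normalized counts in the 5 saline mice and 1553 to 2069 (median 1718) in the 6 young plasma mice. It rose by 0.38 (SE 0.13, exact p = 0.0195) and by 0.44 (SE 0.09) in the paired fit. Bcas1, a marker of cells that have just begun to form myelin, had 1200.2, 753, 977, 1023 and 1045 normalized counts in the 5 saline mice and 829.7 to 2638 (median 1531) in the 6 young plasma mice, a difference of 0.58 (SE 0.24, exact p = 0.0606), and lost its call without any one of saline mouse 7146 or young plasma mice 7144 and 7150. Enpp6, a choline phosphodiesterase of the same stage, differed by 0.64 (exact p = 0.0606) and lost its call without any one of saline mice 7146 and 7596 or young plasma mice 7144, 7150 and 7156. Matn4, a matrix protein, differed by 0.29 (exact p = 0.026) and lost its call without any one of saline mice 7155 and 7596 or young plasma mice 7144, 7147 and 7594. The precursor genes Pdgfra and Cspg4 stood at 0.32 (exact p = 0.522) and 0.12 (exact p = 0.693), and Gpr17, of committed precursors, at -0.11 (exact p = 0.719). Cholesterol synthesis, on which myelin depends, had 0 called of 23. The count of 4 became 2 without saline mouse 7146, 1 without young plasma mouse 7144 and 2 without young plasma mouse 7150.

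Of 44 genes of the motile cilia of ependymal cells, 36 were above 0, with a median of 0.37. Called higher were 4 (9.09%, against 3.35% of all genes tested), namely Tppp3, Cdhr3, Hydin and Ttc21a. The last 3 passed the filter through the young plasma mice, so this count is a description only and Tppp3 is the only other call. Cdhr3, a cadherin of ciliated cells, had 18.7, 9.69, 19.4, 10.0 and 10.9 normalized counts in the 5 saline mice and 15.5 to 55.0 (median 34.9) in the 6 young plasma mice. Cdhr3 was higher by 1.31, with 5 of 6 young plasma mice above all saline mice, and by 1.43 in the paired fit. Hydin, of the central pair of the cilium, and Ttc21a, a protein of transport within cilia, were near 10 normalized counts, which each reached in 2 of 5 saline and 5 of 6 young plasma mice, so that they passed the filter through the young plasma mice and no test of them is given. Cdhr3 reached it in 4 of 5 saline and all 6 young plasma mice, so no test of it is given either. The count of higher genes became 2 without either of saline mouse 7152 and young plasma mouse 7156, with 1 lower in each case and medians of 0.16 and 0.19, and it became 7 without young plasma mouse 7147 and 12 without young plasma mouse 7594. The median was 0.10 without the 4 libraries apart. The list mean was higher in the young plasma mouse of 3 pairs, by 0.06, 0.34 and 0.93, and lower by 0.45 in the pair of 7594 with 7596.

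Choroid plexus genes, from the tissue that lies in the neighbouring ventricle, were called in 0 of 25, with 21 above 0 and a median of 0.17. The direction rested on single libraries, as the median was -0.45 with 2 of 25 above 0 without saline mouse 7152, -0.11 and -0.06 without young plasma mice 7147 and 7156, and 0.52 with 25 of 25 above 0 without young plasma mouse 7150. Their mean level, centred over the 11 mice on a log2 scale, ran from -2.53 to 1.00 in the saline mice and from -1.73 to 1.58 in the young plasma mice. The low ends were saline mouse 7152 and young plasma mouse 7150, and the same list fell by 1.48 from saline mouse 7596 to young plasma mouse 7594, the pair in which cilia and myelin lists were also lower. In the paired fit the choroid plexus median was -0.09, and its part in the differences of cilia and myelin genes was not tested. Genes of meningeal fibroblasts had 0 called of 28. In the paired fit 6 of 28 were higher and 0 lower (21.4%, against 8.14% of all genes tested in either direction). Among them was Col6a1, a collagen chain, at 0.57 (SE 0.14).

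**Figure D4:**
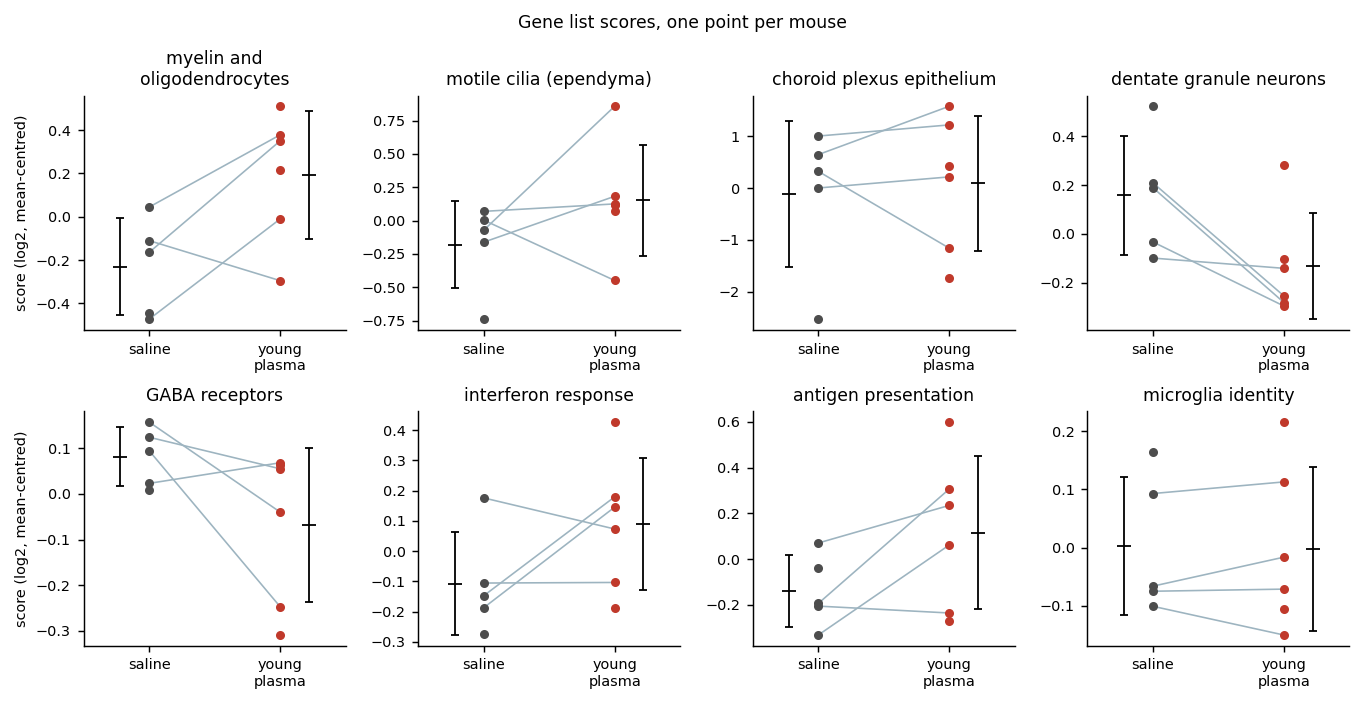
Mean of each gene list in each mouse on the log2 scale, centred over the 11 mice (grey, saline; red, young plasma; thin lines, neighbouring mouse numbers; bars, mean and SD). Dentate granule genes fall along all 4 lines and myelin genes rise along 3, while the choroid plexus scores span more than 2 units within each group.

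Genes of dentate granule neurons had lower values after young plasma. Of 32 tested, 6 were called lower and 0 higher, 31 had a difference below 0, and the median was -0.26. Prox1, the homeobox factor that sets granule cell identity (chromosome 1, 190118035 to 190170827), had 549.7, 466, 625, 528 and 458 normalized counts in the 5 saline mice and 229 to 585 (median 341) in the 6 young plasma mice. The difference was -0.55 (SE 0.19, exact p = 0.0303), with young plasma mouse 7159 as the one mouse not below the saline range, and it was -0.64 (SE 0.12) in the paired fit. Trpc6, a cation channel of granule cells, had 313, 413, 412, 337 and 278 normalized counts in the 5 saline mice and 194 to 308 (median 276) in the 6 young plasma mice, a difference of -0.45 (SE 0.15, exact p = 0.0195). Stxbp6, a regulator of vesicle fusion, differed by -0.47 (exact p = 0.0563) and lost its call without either of saline mice 7146 and 7155. Tdo2, tryptophan dioxygenase, which mature granule cells express, differed by -0.72 (exact p = 0.0584) and lost its call without any one of saline mice 7146, 7152 and 7155 or young plasma mice 7144, 7156 and 7594.

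The paired fit called 16 of the 32 dentate genes lower and 0 higher (50%, against 8.14% of all genes tested), with a median of -0.28. Among the added ones were Calb1, the calcium buffer calbindin of mature granule cells, which had 1161 ± 291 normalized counts (SD, n = 5) in saline mice, against 879 ± 168 (SD, n = 6) in young plasma mice and a paired difference of -0.44 (SE 0.12), Npnt, a matrix protein, at -0.78 (SE 0.15), and Lct, lactase, at -0.63 (SE 0.14). The mean of the list was lower in the young plasma mouse in all 4 pairs, by 0.26, 0.47, 0.46 and 0.04 (log2). The CA field list was also lower in all 4, by 0.10, 0.02, 0.01 and 0.09, as was that of the vacuolar proton pump. Young plasma mouse 7159, with the highest dentate mean of its group (0.28), is in none of the pairs. The same 8 mice without the pair term gave 10 of 32, and Sema5a and Marcks, called in the 11 mice as well, are an axon guidance molecule and a substrate of protein kinase C. The count of 6 in the 11 mice became 3 without saline mouse 7155, 3 without young plasma mouse 7156 and 11 without young plasma mouse 7159, and 1 of 32 passed without the 4 libraries apart (median -0.14). Neurod1, which drives granule neurons to mature and was in the list of neurogenesis, had 179, 181, 236, 167 and 162 normalized counts in the 5 saline mice and 98.5 to 175 (median 143) in the 6 young plasma mice, differed by -0.45 (SE 0.17, exact p = 0.026) and lost its call without saline mouse 7152.

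Among genes of pyramidal neurons of the CA fields, 2 of 30 were called higher and 0 lower, with a median of -0.05. The called genes were Lypd1, a Ly6-family modulator of nicotinic receptors, at 0.29 (exact p = 0.0368), and Amigo2, an adhesion molecule of CA2 and CA3, at 0.40 (exact p = 0.0433). Lypd1 lost its call without either of saline mice 7143 and 7155 and Amigo2 without any one of saline mice 7143, 7146, 7155 and 7596 or young plasma mice 7147, 7150, 7156, 7159 and 7594. Of 30 interneuron genes 1 was called, and Pvalb, parvalbumin, Sst, somatostatin, and Slc32a1, the vesicular GABA transporter, stood at 0.28 (exact p = 0.0887), 0.23 (exact p = 0.24) and 0.39 (exact p = 0.188). Whether granule and pyramidal genes differ from each other in their change was not tested.

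All 16 GABA receptor genes had a difference below 0, 2 were called lower, and the median was -0.15. Gabra4, which pairs with the delta subunit in granule cells, had 986, 1419, 1504, 1262 and 1139.5 normalized counts in the 5 saline mice and 951 to 1159 (median 1038) in the 6 young plasma mice, differed by -0.26 (SE 0.11, exact p = 0.0476) and lost its call without any one of saline mice 7146, 7152 and 7155 or young plasma mice 7144, 7147 and 7156. The paired fit called 5 of 16 lower and 0 higher (31%, against 8.14% of all genes tested in either direction). Among them were Gabra5 and Gabra2, subunits of extrasynaptic and synaptic receptors, at -0.25 (SE 0.08) and -0.22 (SE 0.10). Without the 4 libraries apart 0 of 16 passed, and 6 were above 0.

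Glutamate receptors moved both ways, with 2 of 23 called higher and 1 lower. Grm8, the group III receptor mGluR8, had 64.2, 117, 35.2, 45.6 and 53.2 normalized counts in the 5 saline mice and 81.0 to 119 (median 92.5) in the 6 young plasma mice, a difference of 0.71 (SE 0.25, exact p = 0.0325). With Grm4 it is one of the receptors that restrain release at the presynaptic terminal. Gria2, the AMPA receptor subunit that blocks calcium entry, had 7599.9, 9541, 9423, 7539 and 8512 normalized counts in the 5 saline mice and 6406 to 8207 (median 6986) in the 6 young plasma mice, a difference of -0.25 (SE 0.09, exact p = 0.0281). In the paired fit 5 were lower and the same 2 higher (30.4%, against 8.14% of all genes tested). Among the 5 were Gria1 at -0.23 (SE 0.07), Grin2a at -0.31 (SE 0.10) and Grin2b at -0.18 (SE 0.08). Beside Srr and Slc1a1, 1 of the 23 genes of glutamate transport and glutamine was called, the glutamine carrier Slc38a1 at 0.17 (exact p = 0.0195), which lost its call without any one of saline mice 7143, 7152, 7155 and 7596 or young plasma mice 7144, 7156 and 7159.

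Of 27 receptors for serotonin, dopamine, noradrenaline and acetylcholine, Htr6 and Htr1a were called. Htr6, a serotonin receptor that raises cAMP, had 8.13, 11.1, 9.69, 7.79 and 6.04 normalized counts in the 5 saline mice and 11.1 to 21.1 (median 14.1) in the 6 young plasma mice. It reached 10 in 1 of 5 saline and all 6 young plasma mice and so passed the filter through the young plasma mice, and no test of it is given. Htr1a, the inhibitory serotonin receptor, had 417, 409, 343, 347 and 384 normalized counts in the 5 saline mice and 214 to 366 (median 295) in the 6 young plasma mice. The difference was -0.37 (SE 0.13, exact p = 0.0173). Of 40 neuropeptide genes, 2 were called higher and 3 lower. Npy1r and Npy2r, receptors of neuropeptide Y, differed by -0.32 (exact p = 0.0195) and -0.36 (exact p = 0.0152), and Npy2r lost its call without either of saline mice 7143 and 7152. Sstr2, a somatostatin receptor, had 82.9, 83.0, 79.3, 62.3 and 77.3 normalized counts in the 5 saline mice and 82.9 to 116 (median 101) in the 6 young plasma mice, a difference of 0.36 (SE 0.13, exact p = 0.00866). Tacr1, the substance P receptor, was listed at 0 in saline mouse 7152 and at 6.04 to 19.4 in the other saline mice, against 12.0 to 41.6 after young plasma. Its call is a description only, and the difference of 1.58 was 0.80 without saline mouse 7152. The fifth call of the list, Pdyn, the dynorphin precursor of granule cells, differed by -0.53 (exact p = 0.0823) and was named after its value was seen.

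Ion channels gave few calls, each of them lower. Scn3b, an auxiliary sodium channel subunit, had 2904 ± 351 normalized counts (SD, n = 5) in saline mice, against 2367 ± 307 (SD, n = 6) in young plasma mice, a difference of -0.30 (SE 0.10, exact p = 0.026), and with Cacna2d1 it made 2 of 32 sodium and calcium channel genes. Kcnab1, an auxiliary potassium channel subunit, had 1691 ± 163 normalized counts (SD, n = 5) in saline mice, against 1435 ± 119 (SD, n = 6) in young plasma mice, a difference of -0.24 (SE 0.08, exact p = 0.026). Kcnv1, a silent subunit that modifies other channels, stood at -0.26 (exact p = 0.0606) and lost its call without any one of saline mice 7143, 7146, 7152, 7155 and 7596 or young plasma mice 7144, 7147, 7156 and 7159. They were 2 of 38 potassium channel genes, of which 17 were above 0. The paired fit called 2 higher and 4 lower (15.8%, against 8.14% of all genes tested). Without the 4 libraries apart 3 potassium channel genes were called higher and 1 lower. The sodium and calcium list then had 0 called and a median of 0.08, so the direction of the calls was not that of the lists. Genes of the synaptic vesicle and of the postsynaptic density had 0 called of 41 and 0 of 34, with 12 and 6 above 0.

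Activity and growth genes were called singly. Dusp1, an immediate early phosphatase of MAP kinases, had 461, 441, 495, 329 and 395 normalized counts in the 5 saline mice and 479 to 633 (median 508) in the 6 young plasma mice. Dusp1 rose by 0.32 (SE 0.11, exact p = 0.00866) and by 0.44 (SE 0.10) in the paired fit. Klf10 and Egr3, transcription factors of the same list, were at -0.33 (exact p = 0.0541) and -0.39 (exact p = 0.0649), and the list of 33 had 1 called higher and 2 lower. Klf10 lost its call without any one of saline mice 7146 and 7152 or young plasma mice 7144 and 7156 and Egr3 without any one of saline mice 7146, 7152 and 7155 or young plasma mice 7150, 7156 and 7159. Ngfr, the low-affinity neurotrophin receptor, had 72.4, 50.5, 48.4, 64.5 and 64.0 normalized counts in the 5 saline mice and 46.0 to 149 (median 94.2) in the 6 young plasma mice, with 5 of 6 young plasma mice above all saline mice and young plasma mouse 7150 below them. It was higher by 0.60 (SE 0.24, exact p = 0.0606) and lost its call without any one of saline mice 7146 and 7152 or young plasma mouse 7156. Nrg3, a neuregulin, stood at -0.46 (exact p = 0.0346). It lost its call without any one of saline mice 7143, 7146 and 7155 or young plasma mice 7150 and 7156. Vegfc, a growth factor of lymphatic vessels, stood at -0.68. Its call is a description only, and the difference was -0.50 without young plasma mouse 7150.

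In the list of adult neurogenesis and neural stem cells, 2 of 19 genes were called higher and 1, Neurod1, lower. Lpar1, a lysophosphatidic acid receptor that marks precursors and is also an oligodendrocyte gene, had 455, 312, 296, 449 and 355 normalized counts in the 5 saline mice and 369 to 676 (median 567) in the 6 young plasma mice. Lpar1 rose by 0.52 (SE 0.18, exact p = 0.0368). Mcm3, a subunit of the replicative helicase, differed by 0.42 (exact p = 0.0281) and lost its call without any one of saline mice 7146 and 7596 or young plasma mouse 7150. Other single calls were Bmp1, a procollagen protease, at -0.38 (exact p = 0.0303), Fzd2, a Wnt receptor, at -0.57 (exact p = 0.0563), and Arrdc2, a gene that glucocorticoids induce, at 0.29 (exact p = 0.0303). In the paired fit, which called 8.14% of all genes tested, 5 of 39 genes of TGF-beta and BMP signalling were higher and 3 lower (20.5%). The ligands Bmp4 and Bmp7 stood at 0.69 (SE 0.31) and 0.43 (SE 0.16) in that fit. Bmp1 lost its call without either of saline mouse 7152 or young plasma mouse 7147, Fzd2 without any one of saline mice 7152, 7155 and 7596 or young plasma mice 7144, 7147, 7150, 7156 and 7159 and Arrdc2 without any one of saline mice 7143, 7146 and 7155 or young plasma mice 7144, 7150 and 7156. Trf, transferrin, the iron carrier that oligodendrocytes make, was the call of the iron list, at 0.53 (exact p = 0.0823), and lost it without any one of saline mice 7146 and 7152 or young plasma mice 7144, 7150 and 7156. Vim, vimentin, and Sphk1, sphingosine kinase, were the 2 calls among 20 genes of astrocyte reactivity, at 0.33 (exact p = 0.0195) and 0.76 (exact p = 0.0736). Vim lost its call without saline mouse 7596 and Sphk1 without any one of saline mice 7143, 7155 and 7596 or young plasma mice 7144, 7147, 7150 and 7594. Gfap, the classical marker of reactive astrocytes, stood at 0.04 (exact p = 0.814).

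Interferon-induced genes were called higher in 4 of 50 and lower in 0, with 35 above 0 and a median of 0.18. Type I interferons act through a transcription factor complex that binds a paired element, GAAANNGAAA or its reverse TTTCNNTTTC, in the promoters of these genes. Promoter windows of RefSeq (GRCm38.p6, 250 bases before to 50 after the start) were matched by symbol for 10305 of the genes tested, and 3.54% of them held the element on either strand, against 19 of 40 matched interferon genes. Of the called genes, Ifit3 and Ifit1 hold it and Xaf1 and Irf7 do not. A match is a description of these letters and not a binding site. The stretches of Ifit3 and Ifit1 that carry the matches are shown 5′ to 3′ on the plus strand, with the matches in capitals. They lie at chr19:34583353-34583436 and chr19:34640765-34640833, and each holds 2 matches.
Ifit3: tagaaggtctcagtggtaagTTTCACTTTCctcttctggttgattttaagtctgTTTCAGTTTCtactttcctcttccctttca
Ifit1: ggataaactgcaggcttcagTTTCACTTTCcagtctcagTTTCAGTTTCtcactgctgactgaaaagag

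Ifit3, which binds foreign RNA together with Ifit1, had 146, 120.4, 160.3, 185 and 195 normalized counts in the 5 saline mice and 147 to 388 (median 224) in the 6 young plasma mice. It was higher by 0.55 (SE 0.21, exact p = 0.039) and by 0.53 (SE 0.13) in the paired fit, and 5 of 6 young plasma mice were above all saline mice. Ifit1 had 29.3, 36.0, 60.8, 48.9 and 33.8 normalized counts in the 5 saline mice and 36.7 to 130 (median 65.7) in the 6 young plasma mice, a difference of 0.66 (SE 0.30, exact p = 0.0758). Irf7, the factor that amplifies interferon production, stood at 0.69 (exact p = 0.0584) and Xaf1, an interferon-induced antagonist of apoptosis inhibitors, at 0.57 (exact p = 0.0216). Young plasma mouse 7150 held the highest value of all 4 genes, at 388, 130, 93 and 76 normalized counts in the order Ifit3, Ifit1, Irf7 and Xaf1. Ifit3 lost its call without saline mouse 7146, Ifit1 without any one of saline mice 7143, 7146 and 7596 or young plasma mice 7144, 7147, 7150 and 7594, Irf7 without any one of saline mice 7146 and 7596 or young plasma mice 7144, 7147 and 7150 and Xaf1 without any one of saline mice 7146 and 7155 or young plasma mouse 7150. The 19 interferon genes with the element had a median of 0.25 with 16 above 0, and the 21 without it one of 0.13 with 13 above 0. The count of 4 became 1 without saline mouse 7146, 2 without saline mouse 7596, 2 without young plasma mouse 7144, 2 without young plasma mouse 7147, 1 without young plasma mouse 7150 and 7 without young plasma mouse 7159, and without the 4 libraries apart it was 0, with a median of 0.00.

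Genes of antigen presentation were called in 0 of 23, with 20 above 0 and a median of 0.22. In the paired fit 5 of 23 passed (21.7%, against 8.14% of all genes tested), all higher. They included H2-K1 and H2-D1, the classical class I molecules, at 0.37 (SE 0.08) and 0.31 (SE 0.09), and H2-Ab1 and H2-Aa, the chains of a class II molecule, at 0.67 (SE 0.17) and 0.90 (SE 0.30). H2-K1 had 593, 676, 726, 769.7 and 566 normalized counts in the 5 saline mice and 565 to 1455 (median 819.9) in the 6 young plasma mice. These genes belong to a family of near-identical members, so reads can move between them. Without the 4 libraries apart 11 of 23 were above 0, with a median of 0.01.

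The study examined inflammatory and microglial markers of young plasma in a separate cohort of aged mice, Tnf, C1qb and Itgam by PCR and C1q, CD68 and IBA1 by staining. Of these transcripts C1qb, Itgam, Cd68 and Aif1 could be tested in the present libraries, and none was called. C1qb, a chain of the complement initiator C1q, had 1059.6, 748, 1029, 903 and 909 normalized counts in the 5 saline mice and 908 to 1141 (median 959) in the 6 young plasma mice. The difference was 0.09 (SE 0.10, exact p = 0.392), with a 95% interval of -0.12 to 0.31. Itgam, which encodes CD11b, had 327, 185, 199, 279 and 339.6 normalized counts in the 5 saline mice and 148 to 282 (median 237) in the 6 young plasma mice, a difference of -0.23 (SE 0.21, exact p = 0.355) and an interval of -0.67 to 0.22. Cd68, a lysosomal protein of activated microglia, and Aif1, which encodes IBA1, stood at 0.14 (exact p = 0.32) and -0.01 (exact p = 0.95), with intervals of -0.15 to 0.43 and -0.42 to 0.40. Without the 4 libraries apart Itgam passed, at -0.30 (SE 0.13), the one call gained among these genes. Nfkb1 differed by 0.20 (exact p = 0.236), interval -0.16 to 0.56. Tnf, at 0 to 3.00 normalized counts, and Il1b, at 0 to 4.42, were too low to be tested.

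C1qc, the third chain of C1q, was at 22.0 to 47.1 normalized counts in saline mice 7143 and 7596 and young plasma mice 7144 and 7594, and at 178 to 473 in the other 7. C1qa, whose gene lies beside it, stayed between 351 and 638. The C1qc difference was 0.43 (SE 0.84, exact p = 0.636) in the 11 mice and 0.55 (SE 0.18) in the paired fit, and the mice of low level are 2 neighbouring pairs. Of 26 microglia identity genes 0 were called, with 9 above 0, and of 23 genes of disease-associated microglia 0, with 19 above 0. The paired fit called 4 of these 23 higher and 0 lower (17.4%, against 8.14% of all genes tested), among them Lyz2, lysozyme, at 0.40 (SE 0.13). The same 8 mice without the pair term gave 1 of 23. Complement genes had 0 called of 24.

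Blood-borne transcripts stayed low. Pf4, the platelet chemokine that the study followed further, was at 3.46 to 7.79 normalized counts after saline and 3.18 to 9.99 after young plasma, under the filter. Ppbp, a second platelet chemokine, was at 0 in 10 of 11 mice and at 1.11 in young plasma mouse 7156, and Cxcr3, the PF4 receptor, at 0 to 5.00. Of 12 platelet and megakaryocyte genes 1 was called, Gp5, a subunit of the von Willebrand factor receptor, which had 13.8, 16.6, 23.8, 14.5 and 18.1 normalized counts in the 5 saline mice and 19.8 to 34.0 (median 25.5) in the 6 young plasma mice. Gp5 rose by 0.57 (SE 0.21, exact p = 0.013). Of 26 blood leukocyte genes 2 passed the filter, and neither was called. Bpgm, which sets the oxygen affinity of red cells and is also made in brain, was the call of 3 red cell genes, at 0.20 (exact p = 0.0216), and lost it without any one of saline mouse 7155 or young plasma mice 7150 and 7156. Among 14 chemokine genes the decoy receptors Ackr1, of venules, and Ackr2 were called. Ackr1 had 113, 136, 142, 77.9 and 116 normalized counts in the 5 saline mice and 126 to 209.8 (median 161) in the 6 young plasma mice, a difference of 0.52 (SE 0.18, exact p = 0.0152). Ackr2 stood at -0.80, and at -0.56 without young plasma mouse 7150, and its call is a description only.

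No gene was called in 23 of the 48 lists, which held 704 tested genes counted by list. The large housekeeping lists are among them, with 83 ribosomal protein genes at a median of 0.05, 88 genes of oxidative phosphorylation at 0.05 and 46 proteasome genes at 0.01. Astrocyte identity genes had a median of 0.00 over 28 genes, brain endothelium 0.02 over 37 and heat shock genes 0.01 over 37. The paired fit called 5 higher and 1 lower of the 37 endothelial genes (16.2%, against 8.14% of all genes tested). Among them was Pecam1, an adhesion molecule of endothelium, at 0.32 (SE 0.12). The plot of list medians sets the 3 fits side by side, and the medians of myelin, cilia and dentate genes moved towards 0 when the 4 libraries apart were left out.

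**Figure D5:**
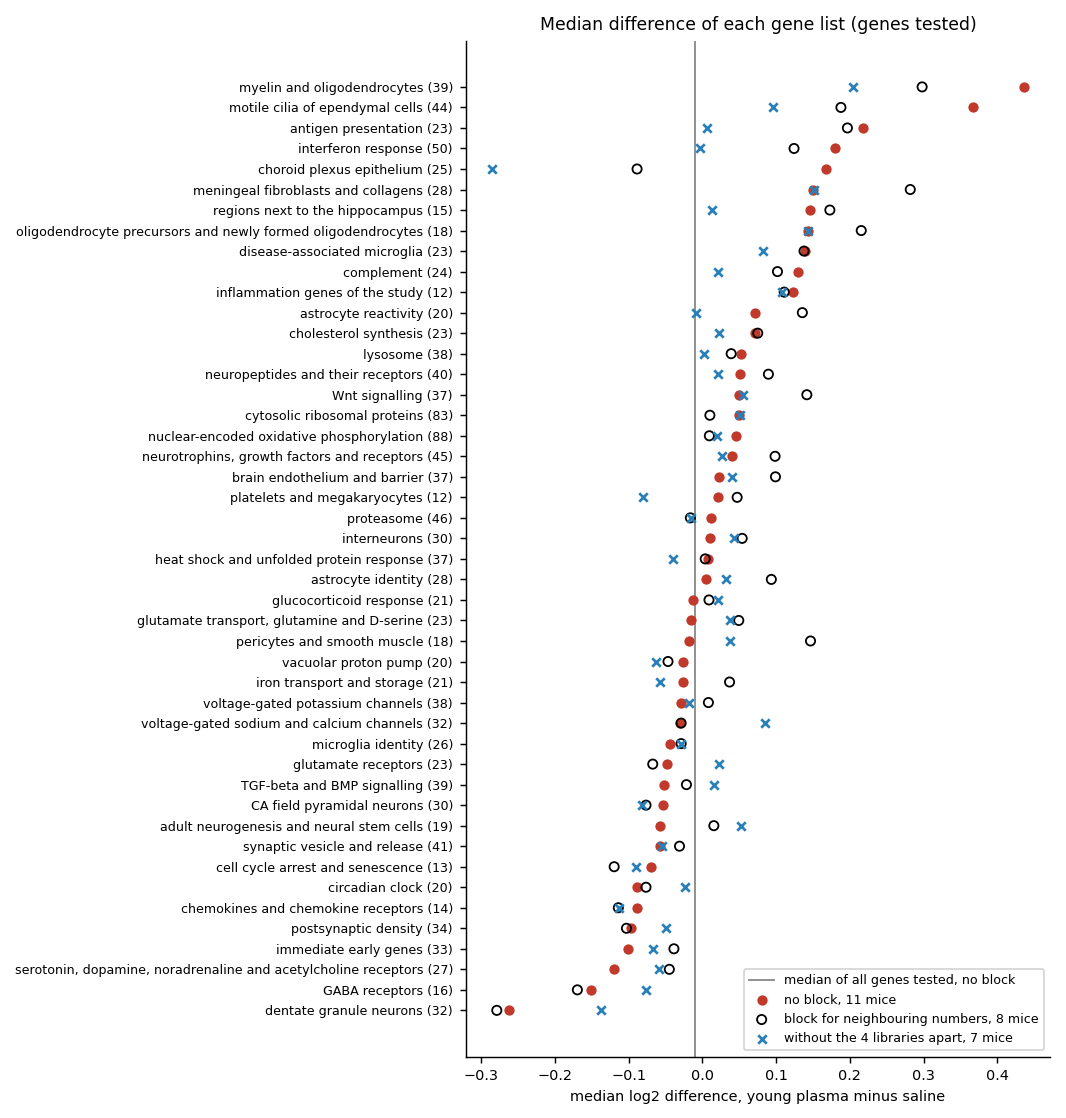
Median log2 difference, young plasma minus saline, of each list of at least 10 tested genes (number in parentheses), in the fit of 11 mice (red), in the paired fit of 8 mice (open) and without the 4 libraries apart on the first component (crosses). Myelin genes lie highest, at 0.44, 0.30 and 0.20, and dentate granule genes lie lowest in the first 2 fits, at -0.26 and -0.28, while choroid plexus genes do without the 4 libraries, at -0.29.

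A further 6 aged mice of the same experiment received the young platelet fraction, and their table, scaled separately, holds the same 5 saline mice, so a likeness between the 2 comparisons is not independent evidence. The log2 differences in the young plasma and platelet fraction comparisons were 0.48 and 0.33 (SE 0.10) for Dusp26, 0.71 and 0.87 (SE 0.22) for Tppp3 and 0.44 and 0.69 (SE 0.14) for Pls1. For lower genes they were -0.53 and -0.18 (SE 0.13) for Galntl6, -0.40 and -0.04 (SE 0.15) for Zc3h7a and -0.55 and -0.27 (SE 0.14) for Prox1. List medians were 0.44 and 0.54 for myelin, 0.18 and 0.13 for interferon genes, 0.22 and 0.11 for antigen presentation and -0.26 and -0.25 for dentate granule neurons. The difference between the treatments was not tested here.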

How the data were processed

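Whole hippocampi of 5 saline and 6 young plasma mice were analysed, grouped by GEO's labels. The authors aligned reads with STAR to mm10, estimated gene counts with RSEM and divided them by DESeq2 size factors, and the deposited table holds the resulting normalized counts, a signal per gene and library. Labels name a stranded poly(A) kit, the study's methods a modified Smart-Seq2. In the deposited values 100% were whole multiples of 1 read (tolerance 0.01), which gave back the reads, 6140510 to 10522699 a library. Each library carries a mouse number of its own.

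Genes with a normalized count of at least 10 in 5 libraries were tested on log2(normalized count + 1) with limma 3.58.1 (R 4.3.3) at an unadjusted P of 0.05, with Benjamini-Hochberg adjustment over all of them. Single genes were also given a two-sided exact permutation p on the same scale. Other settings were pseudocounts of 0.5 and 5, TMM and library total scaling, no filter or a filter at 50, the recovered reads fitted by edgeR 4.0.16 or by DESeq2 1.42.0, each library left out, mice 7143 to 7159 alone, and a term for neighbouring mouse numbers (called the paired fit). Fits without the 4 libraries apart, on the 8 paired mice without the term and with 7150 and 7152 as another pair were chosen after seeing the data. Neighbouring numbers were taken as pairs because all 4 correlations of deviations from the group means exceeded 0.1 (0.247 to 0.482). The labels do not give this pairing, and the limit does not single the 4 pairs out. Other combinations passed it, such as 7152 with 7150 (0.493) and 7596 with 7144 (0.301), though the median of the other 26 was -0.0921. Mice 7150 and 7152 are as near in number as 7594 and 7596, yet were not among the 4 pairs. The correlations come from the same libraries as the paired fit, so the pairing is not independent of it. The limma fit was also run on counts simulated gene by gene, which lack the likeness between libraries seen here. It called 68 of 98 genes changed 1.5-fold, 98 of 98 changed 3-fold and 5.1% of unchanged genes. After adjustment 21 and 88 passed. Its error rate on libraries that resemble each other was not tested.

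The members and the 48 gene lists were chosen with earlier results of these data known. Genes were named by rule: the 15 of smallest P in each direction with a mean of 50 or more, the 5 largest differences in each direction with a mean of 20 or more, up to 4 called genes of each list, and the genes that the study measured by PCR or staining with Pf4, Ppbp and Cxcr3. All other genes with values, among them Mbp, Mog, Myrf, Aspa, Sirt2, Enpp2, Pdgfra, Cspg4, Gpr17, Calb1, Npnt, Lct, Gabra5, Gria1, H2-K1, Lyz2, Amd2, Ttr and Atp6v0c, were chosen after their values were seen. Promoters and coordinates are those of RefSeq and of the GRCm38 annotation. Tables of other treatments were not used here, except the platelet fraction values in the last paragraph of results. A few genes that the rule names are not reported here.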

Additional observations from a re-analysis of the deposited data

Results flagged for a closer look

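In 17 of 306 groups examined (the 5 saline or 6 young plasma mice, for 105 genes and 48 list means), 1 mouse lay far from the others, where chance alone picks out about 1 in 20 groups. The ratio given is the distance of that mouse to its nearest neighbour over the range of its group, on the log2 scale.

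Among genes in the saline mice, Galntl6 was low in mouse 7143, at 151 normalized counts against 201 to 216 (ratio 0.794). In mouse 7155 Sstr2 was low, at 62.3 against 77.3 to 83.0 (0.753), as were Nfkb1, at 38.9 against 58.1 to 65.1 (0.780), and Atp6v0c, at 7643 against 9246 to 9894 (0.738). Kcnv1 was high in mouse 7596, at 504 against 425 to 445 (0.736). Ttr was low in mouse 7152, at 848 against 15673 to 30495 (0.814). These values stand within called differences for Galntl6, Sstr2 and Kcnv1, and of the 3 only Kcnv1 lost its call without that mouse.

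In the young plasma mice, Bend5 was low in mouse 7594, at 51.5 normalized counts against 65.0 to 73.0 (0.666), and Npy2r was low in mouse 7144, at 356 against 564 to 676 (0.718). Amd2 was low in the same mouse, at 123 against 649 to 1190.4 (0.733). Ppbp was at 1.11 in mouse 7156 and at 0 in the other 5 (ratio 1), which is 1 read.

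Among list means, saline mouse 7152 was low for motile cilia (0.714), choroid plexus (0.717) and neuropeptides (0.758), and saline mouse 7596 was low for neurogenesis (0.775). Saline mouse 7155 was high for TGF-beta and BMP signalling (0.791). Young plasma mouse 7159 was high for dentate granule neurons (0.669), at 0.28 against -0.29 to -0.10, and young plasma mouse 7150 was low for amine and acetylcholine receptors (0.722).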

How the results depend on the processing

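No gene called in the 11 mice and named here changed sign under any of the 24 alternatives, while list medians near 0 and those of choroid plexus and interferon genes did under some. The 456 calls became 1106 with the term for neighbouring mouse numbers (522 higher and 584 lower), 1219 with 7150 and 7152 as another pair (519 and 700) and 300 without the 4 libraries apart (131 of them lower), the last 2 chosen after seeing the data. Leaving out 1 library gave 297 (young plasma mouse 7156) to 617 (saline mouse 7143), with 124 to 296 of them lower. All other scalings, pseudocounts and filters, edgeR and DESeq2 left the counts within 1.5 times, and the count at adjusted p stayed at 0 in all 24. Single genes kept their side of the threshold in 2134 repeats, lost the call in 299 and gained it in 17, and 50 of the losses came without the 4 libraries apart. The list medians moved by more than the spread between mice in 17 repeats and by less in 1134, and a filter at 50 left no blood leukocyte gene. No label says that a mouse number stands for the same day or litter in both groups, so the paired fit rests on the data and on the numbering alone. Genes under 10 normalized counts, such as Tnf, Il1b and Pf4, could not be tested at this depth, and intervals such as that of Itgam leave moderate changes undetectable.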

Other observations

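A few genes took 2 separate levels across the 11 libraries without regard to treatment, and were named after their values were seen. Diras2, a small GTPase of neurons, was at 199 to 256 normalized counts in the 4 libraries apart on the first component and at 1793 to 2658 in the other 7, and Tmx4, a thioredoxin-like protein of the endoplasmic reticulum, at 310 to 471 and at 1907 to 2358. Neither was called between young plasma and saline (exact permutation p = 0.907 and 0.985). Lsm4, a subunit of the ring that binds U6 RNA, was at 36.6 to 83.3 in mice 7143, 7144, 7594 and 7596 and at 253 to 505 in the others, the same 4 mice in which C1qc was low. Marcksl1, a relative of Marcks, was at 52.9 to 90.6 in those 4 mice and at 145 to 729 elsewhere. What sets the levels of these genes was not tested.

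Growth hormone (Gh), best known from the pituitary, was called lower and was also singled out after its values were seen. It had 13.0, 74.7, 2.64, 16.7 and 70.1 normalized counts in the 5 saline mice, was listed at 0 in 4 young plasma mice, and was at 2.00 and 13.3 in young plasma mice 7150 and 7156. Gh passed the filter through the saline mice, so no test of it is given. The log2 difference of -3.54 depends on the added pseudocount, because 4 values are 0. Pomc, a second gene of the pituitary and of a few neurons, was likewise highest in saline mice 7146 and 7596, at 66.4 and 123 normalized counts, and at 4.23 to 18.0 in the other 9 mice.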
